A study of Homo sapiens with 12 samples.

Results

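The genes described here are 10 surface markers by which the maturation of myeloid cells is followed, ANPEP, CD33, CD34, KIT, FLT3, CD38, CD14, CD86, CD9 and FUT4. They were read by their gene symbols from probe sets annotated to 1 gene, of 18404 genes measured in this way. Each of 9 of them had 1 such probe set. CD33, a sialic acid receptor of early myeloid cells, was not matched to any probe set by its symbol and was not analysed here.

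Total RNA was measured on 12 Affymetrix ST arrays. All came from NB4, a human acute promyelocytic leukemia line, which carries the PML-RARA fusion and is driven toward granulocytes by all-trans retinoic acid (ATRA). Knockdown cells after 96 hours of 0.5 uM ATRA are represented by 3 arrays, shRNA1 replicates 1 and 2 and shRNA2, both constructs directed at the long noncoding RNA HOTAIRM1 of the HOXA cluster. The same 3 kinds of knockdown cells were measured untreated. Control cells after ATRA are represented by scrambled shRNA replicates 1 and 2 and by wild type NB4, and the same 3 kinds were measured untreated. The lines with an shRNA carried a lentiviral vector with a GFP marker and were isolated as clones from single cells, so a line can differ from another for reasons of the clone. The labels call the duplicates biological without saying whether they came from separate clones, so p-values measure the spread between these samples, which may be partly technical.

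Myeloid maturation changes the surface of a cell in a known order. Stem and early progenitor cells carry the sialomucin CD34 and the receptor kinases KIT (CD117) and FLT3 (CD135), which bind stem cell factor and FLT3 ligand and are lost as cells commit. Promyelocytes carry the aminopeptidase CD13, encoded by ANPEP, and leukemic promyelocytes are known for bright CD33 and CD9 with little CD34 or HLA-DR. Granulocytes gain the Lewis x sugar CD15, which FUT4 helps to build, while CD14 and CD86 are used as markers of monocytes and of antigen-presenting cells. CD38, an enzyme that consumes NAD, is a surface protein that retinoic acid is known to induce in myeloid leukemia lines.

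Log2 values ran from 2.67 to 14.63 over all arrays, with array medians between 7.73 and 7.81. The level of HOTAIRM1 was not analysed here, since the annotation at hand names no probe set for it, and the depletion was therefore not checked. The untreated scrambled replicate 2 array stood apart, at -10.6 on principal component 1 against -41.2 to -32.5 for the other untreated arrays and 20.8 to 43.6 for the ATRA arrays. Of the promyelocyte genes listed, MPO, the myeloperoxidase of primary granules, lay between 12.67 and 13.81 and PRTN3, proteinase 3, between 11.56 and 13.49. The mean rank over arrays lay above the median of all genes for 9 of 9 promyelocyte genes, ANPEP among them, for 4 of 10 monocyte and macrophage genes, for 1 of 11 progenitor genes, for 3 of 11 lymphoid genes and for 2 of 9 erythroid and megakaryocyte genes. Such ranks are rough, since probe sets differ in brightness.

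RefSeq promoter windows are shown for the members whose levels changed with ATRA, because these are the stretches next to the genes that moved. Each window runs from 250 bases before to 50 after an annotated start, 5′ to 3′ on the gene's strand, in GRCh38.p14. Capitals mark 3 words on either strand, the retinoid receptor half-site as AGGTCA or as AGTTCA and GAGGAA, the core of sites bound by the myeloid transcription factor PU.1.
CD86 first window, chr3:122055112-122055411, plus strand: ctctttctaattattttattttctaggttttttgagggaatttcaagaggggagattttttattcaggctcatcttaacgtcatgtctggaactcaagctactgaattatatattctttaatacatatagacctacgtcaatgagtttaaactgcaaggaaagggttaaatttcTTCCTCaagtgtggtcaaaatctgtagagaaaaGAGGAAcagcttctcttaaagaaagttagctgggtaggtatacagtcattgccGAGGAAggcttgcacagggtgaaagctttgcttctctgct
CD86 second window, chr3:122077534-122077833, plus strand: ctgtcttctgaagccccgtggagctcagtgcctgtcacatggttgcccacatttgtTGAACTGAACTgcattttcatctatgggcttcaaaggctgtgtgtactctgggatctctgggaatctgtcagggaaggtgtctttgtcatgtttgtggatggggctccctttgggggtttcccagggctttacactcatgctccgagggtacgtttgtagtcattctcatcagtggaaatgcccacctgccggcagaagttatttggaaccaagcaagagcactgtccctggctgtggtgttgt
CD14, chr5:140633126-140633425, minus strand: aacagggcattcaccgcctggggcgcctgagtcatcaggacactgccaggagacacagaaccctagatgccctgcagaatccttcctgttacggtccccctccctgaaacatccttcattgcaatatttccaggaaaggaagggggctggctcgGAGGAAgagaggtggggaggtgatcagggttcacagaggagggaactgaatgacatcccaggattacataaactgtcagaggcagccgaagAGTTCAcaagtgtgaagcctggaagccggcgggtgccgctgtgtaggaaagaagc
ANPEP upstream window, chr15:89814803-89815102, minus strand: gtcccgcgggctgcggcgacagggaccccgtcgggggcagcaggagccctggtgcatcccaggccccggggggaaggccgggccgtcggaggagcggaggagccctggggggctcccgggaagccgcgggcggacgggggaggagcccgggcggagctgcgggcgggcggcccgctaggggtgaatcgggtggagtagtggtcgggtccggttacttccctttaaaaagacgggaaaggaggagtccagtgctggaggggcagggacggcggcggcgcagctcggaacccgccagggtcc
ANPEP downstream window, chr15:89806579-89806878, minus strand: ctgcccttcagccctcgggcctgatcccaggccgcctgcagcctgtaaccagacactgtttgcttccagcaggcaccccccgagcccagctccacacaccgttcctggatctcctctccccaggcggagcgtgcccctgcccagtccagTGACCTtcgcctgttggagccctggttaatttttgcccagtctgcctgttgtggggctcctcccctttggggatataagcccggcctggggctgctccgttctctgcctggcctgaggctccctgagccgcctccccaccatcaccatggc
CD38, chr4:15778078-15778377, plus strand: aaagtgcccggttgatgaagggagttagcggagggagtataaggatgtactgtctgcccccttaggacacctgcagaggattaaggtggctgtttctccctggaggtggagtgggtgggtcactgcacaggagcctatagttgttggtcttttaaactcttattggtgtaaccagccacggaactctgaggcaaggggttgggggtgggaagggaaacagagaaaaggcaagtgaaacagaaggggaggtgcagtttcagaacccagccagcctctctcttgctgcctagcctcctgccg

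All 9 measured members had a window in the table, 14 windows in all. GAGGAA or its complement was present in 6 of the 14, those of CD14, CD34, FLT3, the first of CD86 and a pair of the 4 windows of CD9, against 27.9% of all 35116 windows. AGGTCA was found in 1, the downstream window of ANPEP, against 13.8% of all windows, and AGTTCA in 2, those of CD14 and the second of CD86, against 10.4%. In the second window of CD86 the AGTTCA matches overlapped each other. A direct repeat of AGGTCA with 5 bases between, a form to which retinoic acid receptors are known to bind, was in 0 of the 14 and in 0.0057% of all windows, and the same repeat of AGTTCA in 0 of the 14 and 0.0114% of all windows. A match is a description of letters and says nothing of binding. The upstream window of ANPEP belongs to the start that myeloid cells are known to use, and the downstream one to the start known from epithelial cells.

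With ATRA, the costimulator CD86 rose and the aminopeptidase ANPEP fell in knockdown and in control cells alike. CD38 passed the test in knockdown cells and CD14 in control cells, while CD34, KIT, FLT3, CD9 and FUT4 passed in neither. Among the 9 measured members, limma called 3 in knockdown cells, 2 higher and 1 lower, where 24.8% of all 18404 genes were called, 10.1% higher and 14.7% lower. For control cells the members' count was also 3, again 2 higher and 1 lower, where 36.1% of all genes were called, 15.2% higher and 20.9% lower. The threshold was an adjusted p of 0.05 (limma with Benjamini-Hochberg over all genes). The members' shares, 3 of 9 in each, are not far from those of all genes. The median change of the members was 0.01 on the log2 scale in knockdown cells and 0.08 in control cells, against -0.03 and 0.05 over all genes. In RNA of bulk cultures, fewer cells carrying a transcript and less transcript per cell cannot be told apart.

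**Figure D1:**
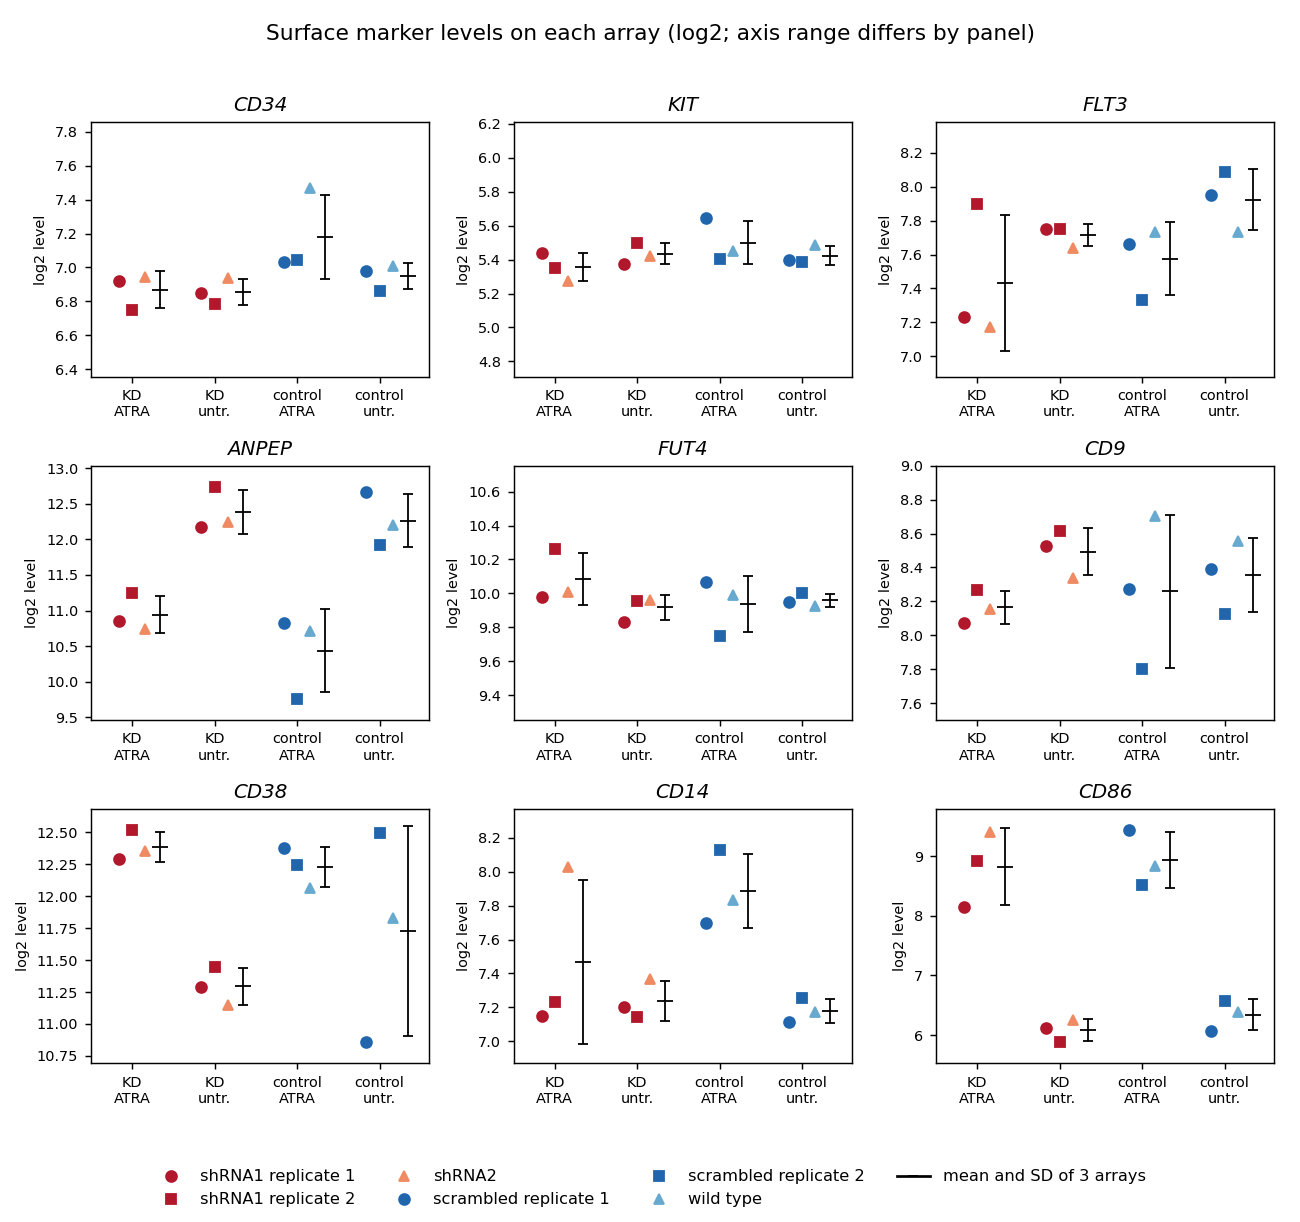
Log2 level of each measured marker on every array (vertical axes, with a range of their own in each panel) for knockdown (KD) and control cells with ATRA or untreated (untr.). Symbols are single arrays and the black bar with whiskers is the mean and SD of 3 arrays; CD86 lies higher and ANPEP lower on all 6 ATRA arrays than on the untreated arrays, and CD38 of untreated scrambled replicate 2 lies at 12.49.

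The progenitor markers come first. CD34, the sialomucin of stem and progenitor cells (probe set 7923978), had log2 levels of 6.92, 6.75 and 6.94 in knockdown cells with ATRA (shRNA1 replicates 1 and 2 and shRNA2), against 6.85, 6.78 and 6.94 in untreated knockdown cells. In control cells it had 7.03, 7.04 and 7.47 with ATRA (scrambled replicates 1 and 2 and wild type), against 6.98, 6.86 and 7.01 untreated. The knockdown arms overlapped, while all 3 control ATRA arrays lay above the untreated ones, the wild type array furthest. Such separation was common, as 48.6% of all genes did not overlap between the control arms. The log2 change was 0.01 in knockdown cells (SE 0.11, adjusted p = 0.953, limma) and 0.23 in control cells (SE 0.11, adjusted p = 0.128, limma). Without the wild type ATRA array the control change was 0.09. Olfactory receptor genes, of no known use to myeloid cells, had control changes of -0.09 to 0.35 (5th to 95th percentile). The part of their shift in the control change of CD34 was not tested.

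KIT, the receptor of stem cell factor (probe set 8095110), had the narrowest range of the 9, with all 12 arrays between 5.27 and 5.65, where it ranked between the 4.51 and 6.72 percentile of the genes on its array. Its means were 5.35 ± 0.08 with ATRA and 5.43 ± 0.06 untreated in knockdown cells, and 5.50 ± 0.13 with ATRA and 5.42 ± 0.06 untreated in control cells (SD, n = 3 each). The 95% interval of its change was -0.26 to 0.10 on the log2 scale in knockdown cells and -0.10 to 0.26 in control cells. These intervals bound the signal of the probe set; at so low a rank they set no bound on the transcript.

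FLT3, the receptor of FLT3 ligand (probe set 7970737), had 7.23, 7.90 and 7.17 in knockdown cells with ATRA, against 7.75, 7.75 and 7.64 untreated. In control cells it had 7.66, 7.33 and 7.73 with ATRA, against 7.95, 8.09 and 7.73 untreated. It was lower with ATRA in 4 of 6 lines and replicates, while the change was 0.00 in wild type cells and 0.15 in shRNA1 replicate 2. The change was -0.28 in knockdown cells (SE 0.18, adjusted p = 0.305, limma) and -0.35 in control cells (SE 0.18, adjusted p = 0.141, limma). In knockdown cells it was -0.15 without the shRNA2 ATRA array and -0.18 without that of shRNA1 replicate 1. Without the ATRA array of shRNA1 replicate 2 it passed in both, at -0.51 in knockdown cells (adjusted p = 0.0216) and -0.35 in control cells (adjusted p = 0.0427), where the size of the change was the same and its SE smaller.

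ANPEP, the aminopeptidase N known as CD13 (probe set 7991335), fell with ATRA in all cells measured. Knockdown cells had 10.85, 11.24 and 10.74 with ATRA, against 12.17, 12.74 and 12.25 untreated. Control cells had 10.83, 9.76 and 10.71 with ATRA, against 12.67, 11.92 and 12.20 untreated. No ATRA array reached any untreated array, in knockdown or in control cells. Of all genes, 41.3% did not overlap between the knockdown arms and 48.6% between the control arms. ANPEP fell by 1.44 on the log2 scale in knockdown cells (SE 0.28, 2.72-fold lower, adjusted p = 0.00306, limma) and fell by 1.83 in control cells (SE 0.28, 3.56-fold lower, adjusted p = 0.000515, limma). It was lower with ATRA in all 6 lines and replicates, by log2 changes between -2.16 in scrambled replicate 2 and -1.32 in shRNA1 replicate 1. With scrambled and shRNA1 arrays only, the fall in knockdown cells missed the threshold, at -1.41 (adjusted p = 0.0534, limma).

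FUT4, a fucosyltransferase that builds the CD15 sugar (probe set 7943236), stood at 10.08 ± 0.15 with ATRA and 9.92 ± 0.07 untreated in knockdown cells (SD, n = 3 each). In control cells it stood at 9.94 ± 0.17 with ATRA and 9.96 ± 0.04 untreated (SD, n = 3 each). All 12 values lay between 9.75 and 10.26. The knockdown arms did not overlap, as in 41.3% of all genes, while the control arms overlapped. The change was 0.17 in knockdown cells (95% interval -0.05 to 0.38, adjusted p = 0.274, limma) and -0.02 in control cells (95% interval -0.24 to 0.19, adjusted p = 0.869, limma). Without the ATRA array of shRNA1 replicate 2 the knockdown change was 0.08. CD15 is a sugar made by several enzymes, so the transcript of FUT4 is not a measure of the antigen.

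CD9, a tetraspanin that organises integrins and other membrane proteins (probe set 7953291), had 8.07, 8.27 and 8.16 in knockdown cells with ATRA, against 8.53, 8.61 and 8.34 untreated. Control cells had 8.27, 7.80 and 8.70 with ATRA, against 8.39, 8.12 and 8.55 untreated. The knockdown arms did not overlap, as in 41.3% of all genes, and the control arms did. The change was -0.33 in knockdown cells (SE 0.19, adjusted p = 0.254, limma) and -0.10 in control cells (SE 0.19, adjusted p = 0.699, limma). The control change was -0.32 without the wild type ATRA array, 0.13 without the ATRA array of scrambled replicate 2 and 0.00 without untreated wild type, so its sign rests on single arrays. The knockdown change passed when only the 2 knockdown arms were fitted (adjusted p = 0.0349, limma).

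CD38, the NAD-consuming ectoenzyme (probe set 8094240), had 12.29, 12.52 and 12.36 in knockdown cells with ATRA, against 11.29, 11.44 and 11.15 untreated. In control cells it had 12.38, 12.24 and 12.07 with ATRA, against 10.86, 12.49 and 11.83 untreated. All 6 ATRA arrays lay within a narrow band from 12.07 to 12.52, and the untreated controls were spread over a wider one, with an SD of 0.82 against 0.15 in untreated knockdown cells. Untreated scrambled replicate 2, the array that stood apart, already had the level of treated cells. CD38 rose by 1.09 in knockdown cells (SE 0.30, 2.13-fold, adjusted p = 0.0179, limma), and its change in control cells was 0.50 (SE 0.30, adjusted p = 0.198, limma). Without untreated scrambled replicate 2, CD38 passed in control cells too, at 0.89 (adjusted p = 0.00967, limma). Without untreated scrambled replicate 1 the control change was 0.07 (adjusted p = 0.771, limma). The knockdown call ended without untreated shRNA2 (1.02, adjusted p = 0.0628), without the ATRA array of shRNA1 replicate 2 (1.03, adjusted p = 0.0616) and with scrambled and shRNA1 arrays only (1.04, adjusted p = 0.176).

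CD14, the coreceptor that hands lipopolysaccharide to TLR4 (probe set 8114612), had 7.15, 7.23 and 8.03 in knockdown cells with ATRA, against 7.20, 7.14 and 7.37 untreated. Control cells had 7.70, 8.13 and 7.83 with ATRA, against 7.12, 7.25 and 7.17 untreated. The knockdown array of shRNA2 with ATRA was at the level of treated controls, while the arrays of shRNA1 with ATRA were at the level of untreated cells. With 2 arrays of shRNA1 and 1 of shRNA2, the difference between the constructs was not tested. CD14 rose by 0.71 in control cells (SE 0.19, 1.63-fold, adjusted p = 0.0149, limma), a call that ended without the ATRA array of scrambled replicate 2 (0.59, adjusted p = 0.0578). Its change in knockdown cells was 0.23 (SE 0.19, adjusted p = 0.454, limma), and -0.05 without the shRNA2 ATRA array. Genes of no known use to myeloid cells moved slightly as well, since 340 olfactory receptor genes had a median change of 0.01 in knockdown cells and 0.12 in control cells. The 95th percentile of their control change was 0.35, and 44 of the 340 were called higher. The part of this shift in the change of CD14 was not tested.

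CD86, which binds CD28 on T cells as a costimulator (probe set 8082035), had the largest change of the 9 in knockdown and in control cells. Knockdown cells had 8.15, 8.92 and 9.42 with ATRA, against 6.12, 5.88 and 6.25 untreated. Control cells had 9.44, 8.52 and 8.85 with ATRA, against 6.07, 6.58 and 6.39 untreated. Every ATRA array lay more than 1 log2 unit above every untreated array. CD86 rose by 2.74 in knockdown cells (SE 0.30, 6.69-fold, adjusted p = 0.000222, limma) and by 2.59 in control cells (SE 0.30, 6.03-fold, adjusted p = 0.000117, limma). It was higher in all 6 lines and replicates, by 1.94 in scrambled replicate 2 to 3.38 in scrambled replicate 1, and kept its call under all 20 alternatives in each kind of cell.

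**Figure D2:**
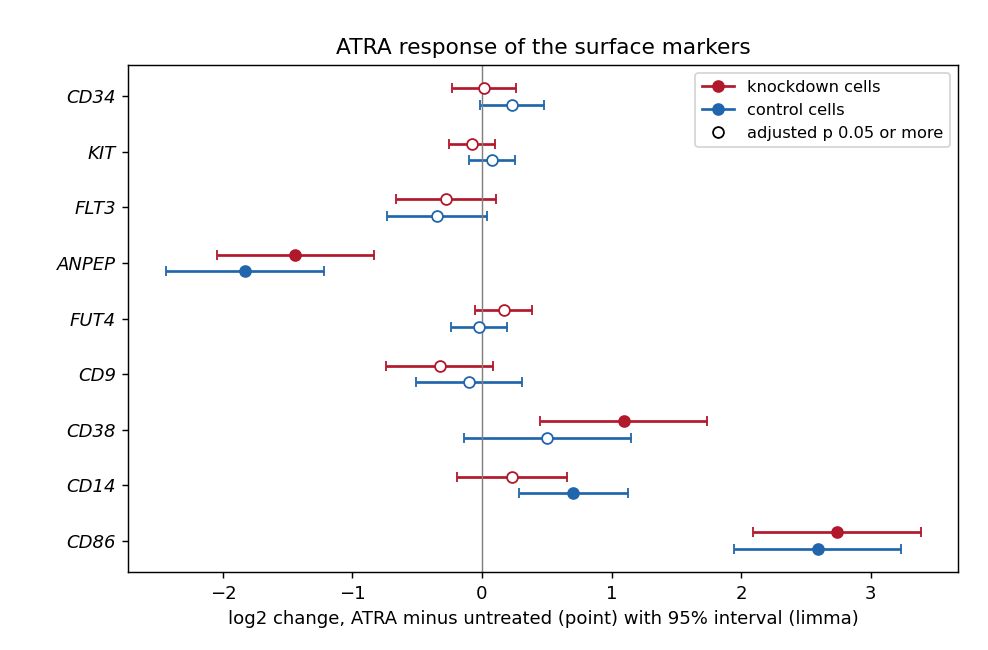
Log2 change with ATRA of each measured marker (horizontal axis) in knockdown cells (red, upper) and control cells (blue, lower), with its 95% interval from limma. Filled points passed an adjusted p of 0.05: ANPEP lies left of 0 at -1.44 and -1.83, CD86 right of it at 2.74 and 2.59, CD38 is filled in knockdown cells alone and CD14 in control cells alone.

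The knockdown and control cells were then compared directly, to ask whether the surface markers depend on HOTAIRM1. None of the 9 markers passed limma's test after ATRA, where 0.0598% of all genes were called (0.0543% higher and 0.00543% lower). An unadjusted p under 0.05 (limma) was reached after ATRA by 1 of the 9, CD34, and by 5171 of all 18404 genes. None passed before ATRA or in the difference between the ATRA responses, where 0% of all genes were called in each. In these 2 comparisons 0 of the 9 had an unadjusted p under 0.05, against 727 of all genes before ATRA and 2815 in the difference of responses. So the calls of CD38 in knockdown cells alone and of CD14 in control cells alone are not shown to be a difference between the cells.

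After ATRA, CD34 was -0.31 on the log2 scale in knockdown relative to control cells (95% interval -0.56 to -0.06, adjusted p = 0.113, limma). The 3 knockdown arrays lay below the 3 controls, in a comparison where 35.1% of all genes did not overlap. Without the wild type ATRA array the difference was -0.17 (adjusted p = 0.292, limma). Olfactory receptor genes had a median of -0.12 in the same comparison, and the part of that shift in the difference of CD34 was not tested. CD14 differed by -0.42 after ATRA (95% interval -0.84 to 0.01, adjusted p = 0.185, limma), and by -0.69 without the shRNA2 ATRA array (adjusted p = 0.0958). ANPEP differed by 0.51 after ATRA (95% interval -0.10 to 1.12, adjusted p = 0.245, limma), with the lowest value in scrambled replicate 2, and by 0.18 without that array (adjusted p = 0.659). CD86 differed by -0.11 after ATRA, with a 95% interval of -0.75 to 0.54, and the value ran from -0.40 without the shRNA2 ATRA array to 0.23 without the ATRA array of shRNA1 replicate 1.

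Before ATRA, differences ran from -0.43 for CD38 to 0.14 for CD9, with an adjusted p of 0.999 for each of the 9 (limma). The difference of CD38 was -0.05 without untreated scrambled replicate 2 and -0.86 without untreated scrambled replicate 1, so it rests on which scrambled array is kept. The ATRA response of CD38 was larger in knockdown than in control cells by 0.59 (95% interval -0.32 to 1.5, adjusted p = 0.48, limma), and by 0.21 without untreated scrambled replicate 2 and 1.02 without untreated scrambled replicate 1. The response of CD14 differed by -0.47 (95% interval -1.07 to 0.13, adjusted p = 0.408, limma) and that of ANPEP by 0.39 (95% interval -0.47 to 1.25, adjusted p = 0.617, limma). With 1 array left out, the value for CD14 ran from -0.75 without the shRNA2 ATRA array to -0.31 without the ATRA array of shRNA1 replicate 1. For ANPEP it was 0.05 without the ATRA array of scrambled replicate 2 and at most 0.59, without that of scrambled replicate 1. For CD86 the interval of the difference was -0.76 to 1.06, so responses that differ by up to about that size were not distinguishable with 3 arrays in each arm.

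**Figure D3:**
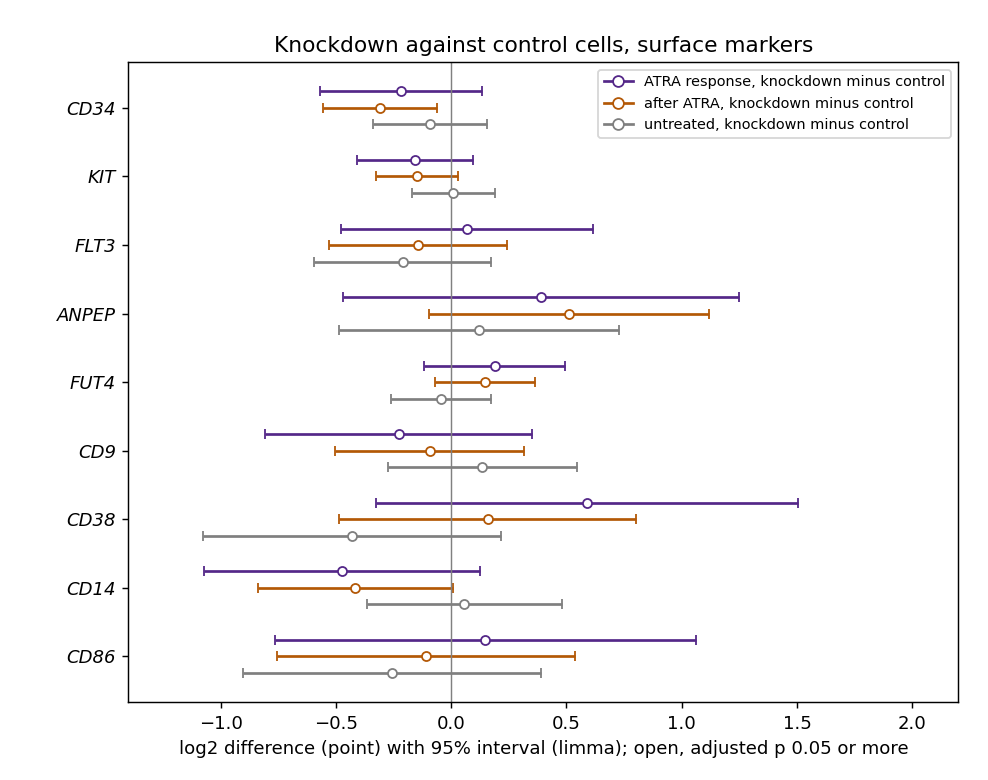
Log2 differences between knockdown and control cells for each measured marker (horizontal axis, points with 95% intervals from limma): the difference of the ATRA responses, the difference after ATRA and the difference untreated. All points are open, as no adjusted p was under 0.05, and the intervals for CD38, CD86 and ANPEP are the widest.

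Relatives of each marker, from lists by family, partner or pathway without the markers themselves, put these changes beside the rest of the cell surface. Over all genes, 10.1% rose and 14.7% fell in knockdown cells, and 15.2% rose and 20.9% fell in control cells. These shares stand beside every count below. In the difference of the ATRA responses 0 of 18404 genes were called. Unlike counts in knockdown and control cells are therefore not shown to be a difference between the cells. Among the other granulocyte surface markers, 17 of 27 rose and 0 fell in knockdown cells, with a median change of 1.04, and 16 of 27 rose and 0 fell in control cells, with a median of 0.86. ITGAX, the CD11c integrin subunit, rose by 2.96 (SE 0.36) in knockdown cells and 2.48 (SE 0.36) in control cells. ITGB2, the beta subunit it pairs with, rose by 2.05 (SE 0.28) in knockdown cells and 1.61 (SE 0.28) in control cells. FCAR, the IgA receptor, rose by 2.07 (SE 0.20) in knockdown cells and 1.99 (SE 0.20) in control cells, and the complement receptor C5AR1 by 2.06 (SE 0.35) in knockdown cells and 2.51 (SE 0.35) in control cells.

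The peptidase list shows ANPEP against its kind. Of 12 other peptidases of the surface and secretory pathway, 6 rose and 0 fell in knockdown cells, and 5 rose and 0 fell in control cells, while ANPEP itself fell in each. CPM, a carboxypeptidase of the membrane, rose by 0.48 (SE 0.12) in knockdown cells and 0.82 (SE 0.12) in control cells. ADAM17, the sheddase of tumor necrosis factor, rose by 0.60 (SE 0.13) in knockdown cells and 0.40 (SE 0.13) in control cells. ERAP2, which trims peptides for class I molecules, rose by 1.46 (SE 0.34) in knockdown cells, and its change in control cells was 0.86 (SE 0.34, adjusted p = 0.0649, limma). Its untreated arrays had an SD of 0.84 in control cells, against 0.38 in knockdown cells.

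For KIT and FLT3, other class III receptor kinases and ligands were listed, and 3 of 7 rose in knockdown cells and 4 of 7 in control cells, with 0 falling. CSF1R, the receptor of macrophage colony-stimulating factor, rose by 0.90 (SE 0.18) in knockdown cells and 1.08 (SE 0.18) in control cells, and its ligand CSF1 by 1.03 (SE 0.15) in knockdown cells and 1.16 (SE 0.15) in control cells. FLT3LG, the ligand of FLT3, rose by 0.48 (SE 0.12) in knockdown cells and 0.46 (SE 0.12) in control cells. Among hematopoietic cytokine receptors 6 of 14 rose in knockdown cells and 7 of 14 in control cells, again with 0 falling. CSF2RB, the shared beta chain of the GM-CSF receptor, rose by 1.57 (SE 0.16) in knockdown cells and 1.21 (SE 0.16) in control cells.

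Progenitor markers other than CD34, KIT and FLT3 were called in 1 of 8 cases in each kind of cell. Of all genes, 24.8% were called in knockdown cells and 36.1% in control cells, so these markers were not called more often. In knockdown cells 0 of 8 rose and 1 fell, GATA2, a transcription factor of early progenitors, which fell by 0.97 (SE 0.22), and its control change was -0.36 (SE 0.22, adjusted p = 0.213, limma). In control cells 1 of 8 rose, ERG, by 0.27 (SE 0.09), and 0 fell. That change of ERG lies within the 5th to 95th percentile of the olfactory receptor genes in control cells, -0.09 to 0.35, and the part of their shift in it was not tested. Of 7 sialomucins and other relatives of CD34, 0 were called in knockdown cells and 1, the endosomal sialomucin CD164, rose in control cells, by 0.35 (SE 0.10). That size is about the 95th percentile of the olfactory receptor genes there.

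Around CD38, 2 of 9 other ectoenzymes and NAD enzymes rose in knockdown cells and 3 of 9 in control cells, with 0 falling. Of all genes, 10.1% rose in knockdown cells and 15.2% in control cells. ENTPD1, the CD39 enzyme that removes extracellular ATP, rose by 2.56 (SE 0.29) in knockdown cells and 2.17 (SE 0.29) in control cells. NAMPT, which recycles nicotinamide toward NAD, rose by 1.14 (SE 0.23) in knockdown cells and 0.94 (SE 0.23) in control cells. BST1, the closest relative of CD38, rose by 0.32 (SE 0.09) in control cells, and its knockdown change was 0.18 (SE 0.09, adjusted p = 0.176, limma). The control change of BST1 also lies under 0.35, the 95th percentile of the olfactory receptor genes there.

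Partners of CD14 in lipopolysaccharide recognition rose in 4 of 9 cases in knockdown cells and in 6 of 9 in control cells, and 0 fell. LY96, which forms the receptor with TLR4, rose by 2.84 (SE 0.31) in knockdown cells and 3.17 (SE 0.31) in control cells. MYD88, the adaptor below the receptor, rose by 1.37 (SE 0.13) in knockdown cells and 1.27 (SE 0.13) in control cells. BPI, a granule protein that binds lipopolysaccharide, rose by 4.76 (SE 0.65) in knockdown cells and 2.63 (SE 0.65) in control cells. Among monocyte and macrophage markers other than CD14, 5 of 9 rose in knockdown cells and 7 of 9 in control cells. Of these, MARCO was called in control cells alone, at 0.39 (SE 0.08), with a knockdown change of -0.07 (adjusted p = 0.607, limma). The 95th percentile of the olfactory receptor genes in control cells was 0.35, and the part of their shift in this count was not tested. The lysosomal protein CD68 rose by 1.26 (SE 0.13) in knockdown cells and 1.32 (SE 0.13) in control cells, and the fractalkine receptor CX3CR1 by 2.77 (SE 0.31) in knockdown cells and 2.26 (SE 0.31) in control cells. The macrophage gene CD163, which passed the test as higher with ATRA in both kinds of cell, lay between 6.16 and 6.74 over all 12 arrays, and MRC1, which passed in neither, between 5.99 and 6.38. With CD14 included, the summed log2 level of the 10 markers was 80.0 to 81.2 in knockdown cells with ATRA, against 74.2 to 75.2 untreated, and 82.1 to 82.7 in control cells with ATRA, against 74.0 to 75.8 untreated. The part of such markers in the changes of CD14 and CD86 was not tested.

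Of 12 other costimulators and class II genes, listed as relatives of CD86, 1 rose in knockdown cells, CD274, which also rose in control cells. ICOSLG, the ligand of the T cell receptor ICOS, fell by 0.95 (SE 0.24) in knockdown cells, with a control change of -0.49 (SE 0.24, adjusted p = 0.132, limma). In control cells 5 of 12 rose and 0 fell, among them PDCD1LG2, a ligand of PD-1, by 0.72 (SE 0.14) and CD40 by 0.42 (SE 0.10). In knockdown cells, PDCD1LG2 and CD40 had changes of 0.30 (adjusted p = 0.137, limma) and 0.11 (adjusted p = 0.507, limma). Between knockdown and control cells, 0 of the 12 were called after ATRA and 0 in the difference of the ATRA responses. Olfactory receptor genes were also called higher more often in control cells, 44 of 340 against 7 in knockdown cells. The part of that shift in these counts was not tested.

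Relatives of CD9 and of FUT4 went both ways, as all genes did. Of all genes, 10.1% rose and 14.7% fell in knockdown cells, and 15.2% rose and 20.9% fell in control cells. Of 22 other tetraspanins and partners, 5 rose and 3 fell in knockdown cells, and 5 rose and 3 fell in control cells. The leukocyte tetraspanin CD53 rose by 2.10 (SE 0.34) in knockdown cells and 1.68 (SE 0.34) in control cells, CD37 by 1.61 (SE 0.32) in knockdown cells and 1.02 (SE 0.32) in control cells, while CD151, a partner of laminin-binding integrins, fell by 0.90 (SE 0.17) in knockdown cells and fell by 0.88 (SE 0.17) in control cells. Of 20 other genes of Lewis x and sialyl Lewis x synthesis, 3 rose and 7 fell in knockdown cells, and 4 rose and 6 fell in control cells. GFUS, which makes GDP-fucose, fell by 0.58 (SE 0.09) in knockdown cells and fell by 0.78 (SE 0.09) in control cells, and SLC35C1, which carries GDP-fucose into the Golgi, fell by 0.51 (SE 0.15) in knockdown cells and fell by 0.79 (SE 0.15) in control cells. B4GALT1, a galactosyltransferase, rose by 0.99 (SE 0.16) in knockdown cells and 0.70 (SE 0.16) in control cells. Siglecs other than CD33 rose in 4 of 12 cases in knockdown cells and in 8 of 12 in control cells, with SIGLEC7 at 1.15 (SE 0.12) in knockdown cells and 1.29 (SE 0.12) in control cells and SIGLEC10 at 1.71 (SE 0.25) in knockdown cells and 0.96 (SE 0.25) in control cells. SIGLEC14, which also rose, is uncertain because its sequence is close to that of SIGLEC5. SIGLEC11 was called in control cells alone, at 0.37 (SE 0.08), close to 0.35, the 95th percentile of the olfactory receptor genes there. The part of their shift in the siglec counts was not tested. In the difference of the ATRA responses 0 of the 12 siglecs were called.

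**Figure D4:**
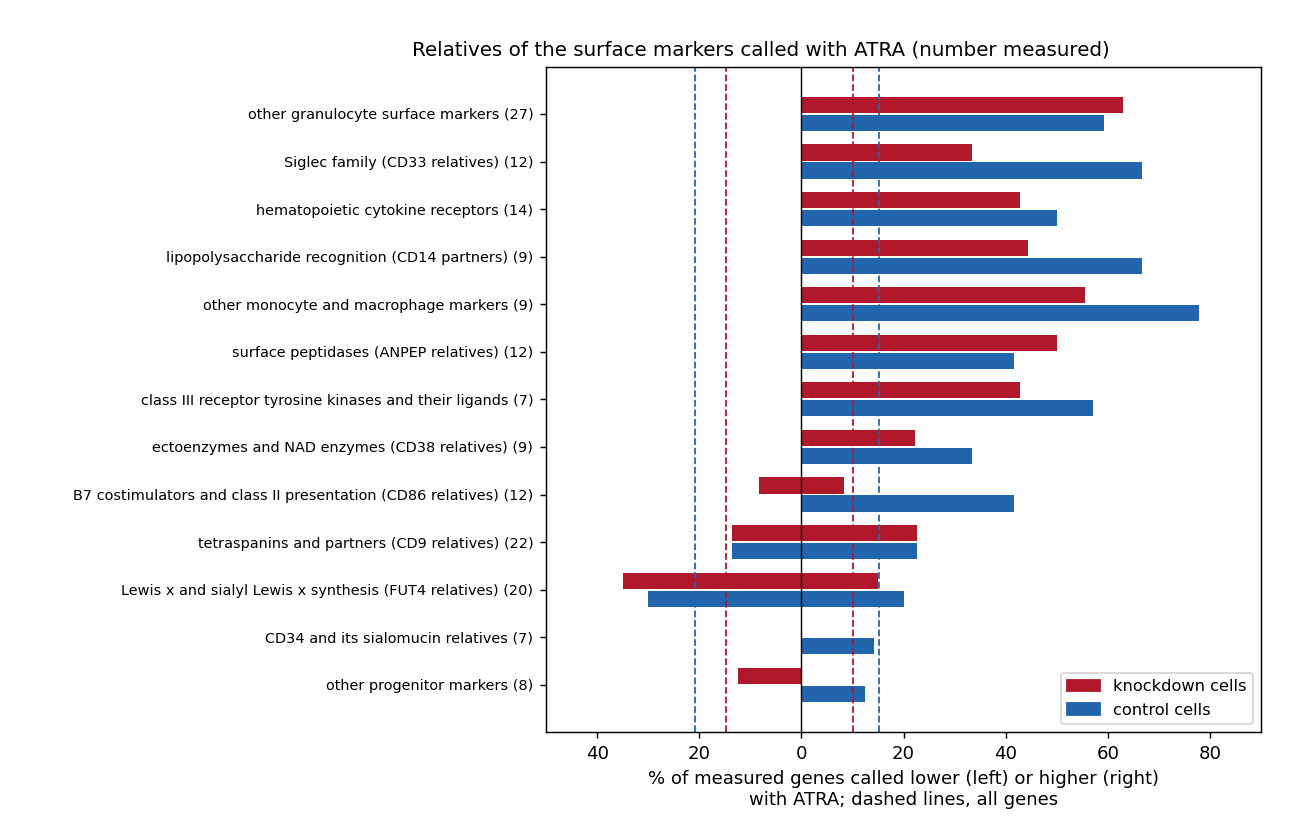
Percentage of the measured genes in each list called higher (right of 0) or lower (left of 0) with ATRA, in knockdown cells (red) and control cells (blue), with the number measured in brackets and the markers themselves left out. Dashed lines give all genes, at 10.1% and 14.7% in knockdown cells and 15.2% and 20.9% in control cells. The granulocyte markers reach furthest right in knockdown cells, with 17 of 27. In control cells the other monocyte and macrophage markers do, with 7 of 9, against 16 of 27 granulocyte markers.

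The genes whose levels followed each marker most closely were found by Pearson's r over the 12 arrays. This is a description across arrays that share 2 ATRA states and 6 lines or replicates. Every r below was picked as among the highest of 18404 genes. CD86 was followed by CLEC7A, the beta-glucan receptor dectin-1 (r = 0.994), IRF9, a subunit of the interferon-activated factor (r = 0.992), and the cytokine gene IL1B (r = 0.985). CD38 was followed by the phosphatase gene PTPN7 (r = 0.981), LAPTM5, a lysosomal protein of leukocytes (r = 0.976), and SERPINB1, an inhibitor of neutrophil proteases (r = 0.972). ANPEP was followed by STAR (r = 0.981), PPM1G (r = 0.976) and RITA1 (r = 0.975). CD14 was followed by AMHR2 (r = 0.955), the olfactory receptor gene OR56A1 (r = 0.918) and PHOSPHO1 (r = 0.908). CD34 was followed by WSCD1 (r = 0.944), PRSS41 (r = 0.932) and NES (r = 0.924). For KIT, FLT3, CD9 and FUT4, which passed in neither ATRA comparison, the closest genes were OR10W1 (r = 0.878), SLC35A2 (r = 0.90), VHRT (r = 0.879) and NPFF (r = 0.87).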

How the data were processed

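RNA of 12 NB4 samples was hybridised to Affymetrix ST arrays. The authors deposited 1 table of log2 values, for which the submitters' processing notes name RMA and limma (versions and settings are not given in the sources used here), and its values were used unchanged. Of 32321 probe sets, 19158 were annotated to 1 gene, 1388 to several and 11775 were unnamed. Symbols were matched through Entrez identifiers (0 changed), and the probe set with the highest mean was kept, which gave 18404 genes with no filter on low values.

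All tests used limma, version 3.58.1, under R 4.3.3 (lmFit on 4 arm means, eBayes defaults, 8 residual degrees of freedom), two-sided, with Benjamini-Hochberg adjustment over all genes and a threshold of 0.05. With 3 arrays against 3, exact permutation reaches no p below 0.1, so none was run. The model was tested on simulated data. Samples were grouped by the labels. Members and lists were chosen with earlier results of these data known. Named genes were all members, up to 4 called genes with the smallest p in each list, and the 3 genes with the highest r to each member. CD163, CD274, MRC1, MPO and PRTN3 were named after their values were seen. Untreated and ATRA arrays share a line by their labels, while their deviations from arm means correlated at -0.17 to 0.23 over the 6 pairs, 4 of them over 0.1.

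The alternatives were a block for line, only the arms compared, quantile normalization, a filter on dim genes, array weights, mean probe sets, another prior, fewer lines and leaving out each array.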

Additional observations from a re-analysis of the deposited data

How the results depend on the processing

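With 3 arrays in each arm, small changes were not resolved, and dim probe sets such as that of KIT limit what can be seen. With the replicate block, 3 members were called in knockdown cells, 3 in control cells and 0 in the difference of responses, and no call changed. The numbers in the labels do not say that replicates share a culture. With scrambled and shRNA1 arrays only, 1 member, CD86, was called in knockdown cells instead of 3. No other count of called members differed by more than 1.5 times. Over the alternatives, 824 single values kept their direction and their side of the threshold, 5 lost a call, 5 gained one, and 29 that were not called changed sign. Many of the 824 could not change direction. The block for line, the other prior, the filter on dim genes and the fits of only the arms compared leave the size of a change as it was. So does leaving out an array of an arm outside the comparison. Calls were lost by CD38 and ANPEP in knockdown cells and CD14 in control cells, and gained by FLT3, by CD9 and by CD38 in control cells, the last also with array weights (0.52, adjusted p = 0.0484, limma). The causes were not tested. CD34 and KIT fell among the dimmest genes and were not tested with that filter. Averaging probe sets left the members' values as they were, since each had 1 probe set.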
